A study of Mus musculus with 6 samples.

Results

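The nuclear genes of respiratory complexes II, III, IV and V, with cytochrome c and the assembly factors that carry the same family names, were read in mouse ventral midbrain. The members were all genes whose symbol belongs to the Sdh, Sdhaf, Uqc, Cyc1, Cycs, Cox4 to Cox8, Cox10 to Cox19 or Atp5 families and which had a probe set assigned to that gene alone. Where a gene had several probe sets, the one with the highest mean over the 6 arrays stood for it. This gave 61 genes of 22180 genes with a probe set of their own, chosen by name and not by their values. Another 3 genes that match the rule in the RefSeq gene table, Cox11, Cox6c and Uqcr10, shared their probe sets with a second gene and were not analysed here.

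Total RNA came from the ventral midbrain of male mice aged 2 months. Of the 6 Affymetrix arrays, 3 carried the genotype label Bach1 KO and 3 the label WT, and the labels list no treatment. The allele, the strain and whether each array held RNA of a separate animal are not given in the sources used here, so a p-value here reflects only the scatter among the arrays, which may be technical. Values are log2 expression levels, where a difference of 1 is a doubling. The Bach1 probe set read 7.59, 7.68 and 7.70 on the knockout-labelled arrays and 7.46, 7.59 and 7.57 on the wild-type arrays, so it was not lower under the knockout label (log2 difference 0.11, limma, adjusted p = 0.74). A probe set outside a deleted part checks nothing, and directions below follow the labels. Hmox1, the heme oxygenase gene that BACH1 represses, was 3.85-fold higher on the knockout-labelled arrays (limma, adjusted p = 0.0181). Its log2 fold change of 1.95 stayed between 1.88 and 2.03 when any single array was left out, but the adjusted p was then 0.134 to 0.233. Markers of midbrain dopamine neurons were present on every array, with a mean level of 11.23 for Th and 11.96 for the dopamine transporter gene Slc6a3. Of 8 such markers 7 were higher under the knockout label, with a median log2 fold change of 0.18 and 0 called. The groups did not overlap in 1 of them, Aldh1a1, against 14.3% of all probe sets. Over all genes 46.9% were higher, and 36.7% above a level of 9.56, the range that holds the median level of these markers. Their mean deviation from the wild-type level overlapped, at 0.21, -0.0079 and 0.32 against 0.028, 0.075 and -0.10. The part of these neurons in the values below was not tested.

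The respiratory chain moves electrons along the inner mitochondrial membrane to oxygen, and ATP synthase uses the resulting proton gradient to make ATP. Complex II takes electrons from succinate, complex III passes them from ubiquinol to cytochrome c, complex IV hands them to oxygen, and complex V is the ATP synthase. Complex IV has subunits that come in tissue isoforms, a widely expressed form and a form typical of muscle, vessels, lung or testis. Complexes II, III and IV and cytochrome c all carry heme, and neurons depend heavily on this chain for ATP. BACH1 is a heme-binding transcriptional repressor, and in cancer cells it has been reported to restrain nuclear genes of the electron transport chain.

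Because BACH1 acts through antioxidant response elements and the factor NRF-1 is a classical activator of respiratory genes, the promoters were searched for the letters of both elements. RefSeq promoter sequences (GRCm38.p6, 250 bases before to 50 bases after the gene start) were matched for 48 of the 61 members. The 9-letter form of the BACH1 and Maf recognition element, TGACTCAGC on either strand, occurred in 0 of the 48, against 0.503% of the 27025 genes in the promoter table. The looser antioxidant response element core TGACNNNGC, which includes the former, occurred in 5 of 48 (10.4%, against 14.0% of all genes). The NRF-1 core GCATGCGC on either strand occurred in 8 of 48 (16.7%, against 3.05% of all genes). A match is a description of the letters and does not show binding.

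For 4 members the windows with the antioxidant response element core are shown because they hold the letters of an element that BACH1 is known to bind. They are written 5′ to 3′ on the gene's strand with the matching letters in capitals.
Cox16 (chr12:81484972-81485001, minus strand): tggaagcggcTGACTAAGCaggccgcacct
Atp5o (chr16:91931793-91931822, minus strand): tcaacgatgtTGACGATGCatgtgcaaaga
Sdhaf2 (chr19:10525219-10525248, minus strand): ccccccaccgGCGGCGTCAcacgcaccgct
Cox5b (chr1:36691487-36691516, plus strand): agcggaagacTGACCGGGCgttgttagact
In Cox16, Atp5o and Sdhaf2 the match begins 140, 182 and 29 bases before the gene start, and in Cox5b it lies 10 bases after it.

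For the NRF-1 core, a promoter from each of complexes II, IV and V and that of cytochrome c are shown for comparison, with the first match in capitals.
Sdhb (chr4:140961206-140961235, plus strand): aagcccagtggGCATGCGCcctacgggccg
Cycs (chr6:50566611-50566640, minus strand): catgctagctcGCATGCGCgcgcacaaacc
Cox6a1 (chr5:115349102-115349131, minus strand): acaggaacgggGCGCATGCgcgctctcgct
Atp5k (chr5:108434431-108434460, minus strand): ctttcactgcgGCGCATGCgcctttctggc
In Cox6a1 and Atp5k the core reads on both strands at once. The other 4 members with it are Atp5l, Uqcrc1, Uqcr11 and Atp5g2.

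No member passed the test between the genotypes. Limma called 0 of 61 members at an adjusted p under 0.05, against 3 of 41345 probe sets (0.00726%). At an unadjusted p under 0.05 it gave 1 member, Atp5j2, against 8.27% of all probe sets and 1443 of the 22180 genes. The smallest adjusted p of a member in limma was 0.577. The knockout-labelled mean lay above the wild-type mean for 35 members and below it for 26, and the median log2 fold change was 0.012, while over all 22180 genes 46.9% were higher and the median was -0.0098. Centring each array on its own median moved every log2 fold change by -0.047, so the split became 19 higher and 42 lower, and 33.9% of all genes were then higher. The median was also below 0 without knockout-labelled replicate 3 (-0.0028) or without wild-type replicate 3 (-0.0045).

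The differences were small in size as well. The log2 fold change lay within 0.1 of 0 for 40 of the 61 members, and its median size was 0.071, against 0.093 over all genes. It went beyond 0.2 in 3 members, Atp5j2, Cox7b2 and Cox6b2. The 95% interval stayed within a 1.5-fold change in either direction for 58 members and within a 2-fold change for all 61. The exceptions to the 1.5-fold bound were Atp5j2, whose interval reached 0.73, and Cox6a2 and Cox6b2, whose intervals reached -0.66 and -0.68.

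**Figure D1:**
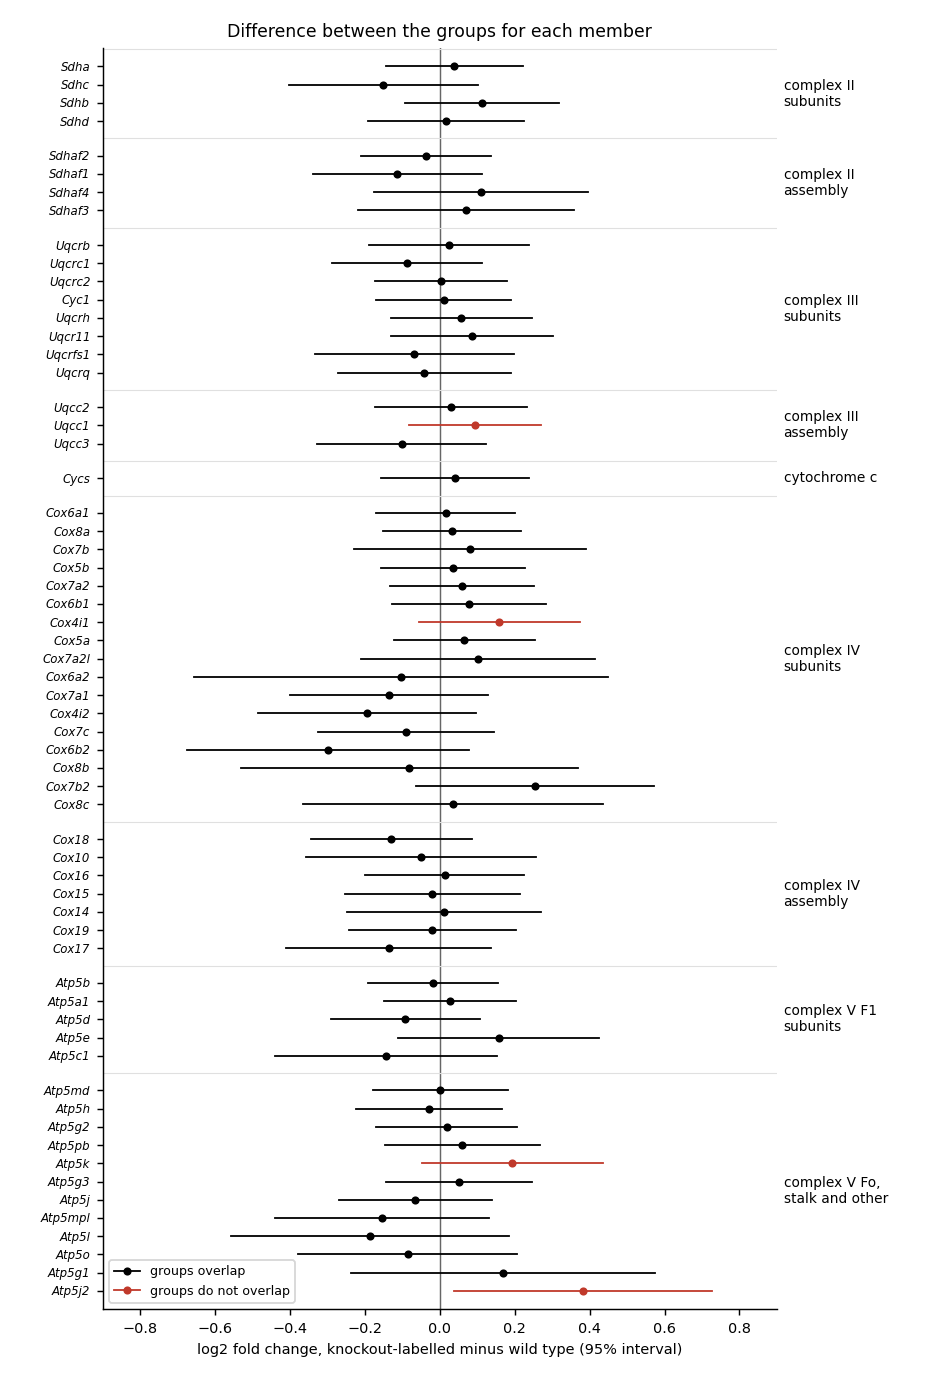
Log2 fold change (knockout-labelled minus wild type, horizontal axis) of each of the 61 members with its 95% interval, grouped by complex and role; points in red are members whose 3 values in one group all lie above those of the other. All intervals but that of Atp5j2 cross 0, and the 4 red members are Uqcc1, Cox4i1, Atp5k and Atp5j2.

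The values of the groups did not overlap in 4 of 61 members, all 4 with the knockout-labelled arrays higher. Over all probe sets the groups did not overlap in 14.3%, with the knockout-labelled values higher in 7.4% and lower in 6.86%. Of the 22180 genes, with 1 probe set each like the members, they did not overlap in 3173, 1411 higher and 1762 lower. After renewed quantile normalization the groups did not overlap in 9 members, against 13.3% of all probe sets, so how the members' count stands to the background changes with the normalization.

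Complex II oxidises succinate and is the one complex here whose subunits are all encoded in the nucleus. For 3 of its 4 subunits the knockout-labelled mean was the higher one, for 1 the lower, and 0 passed. Sdhc, a membrane anchor that helps hold heme b, read 9.80, 9.63 and 9.77 on the knockout-labelled arrays and 10.03, 9.86 and 9.76 on the wild-type arrays. Its lowest wild-type value lay between the knockout-labelled ones, and the log2 fold change of -0.15 (95% interval -0.40 to 0.10) did not pass (adjusted p = 0.728). Sdhb, the iron-sulfur subunit, read 9.55, 9.68 and 9.74 against 9.51, 9.57 and 9.55, where only knockout-labelled replicate 1 fell among the wild-type values (log2 fold change 0.11, adjusted p = 0.749). Sdha, the flavoprotein that binds succinate, was almost level, at 11.46, 11.49 and 11.49 against 11.44, 11.39 and 11.49. The log2 fold change of Sdhd, the other anchor, was 0.016.

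The complex II assembly factors were mixed in the same way. Sdhaf1, which guards the iron-sulfur clusters of SDHB, had a log2 fold change of -0.11 (8.73, 8.53 and 8.72 against 8.76, 8.71 and 8.85; adjusted p = 0.768). A second, dimmer probe set of Sdhaf1 was at 5.42 ± 0.10 against 5.67 ± 0.068 (SD, n = 3), with the knockout-labelled values all lower. It too missed the threshold (limma, adjusted p = 0.572). Sdhaf4 and Sdhaf3 had log2 fold changes of 0.11 and 0.071, and for both the value of knockout-labelled replicate 3 was the highest of the 6. Sdhaf2, which attaches the flavin to SDHA and whose promoter window is shown above, was within 0.037 log2 units of the wild-type mean and had a wild-type SD of 0.014.

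Complex III carries the electrons from ubiquinol to cytochrome c, and its measured subunits were nearly level. Knockout-labelled means were higher in 5 of the 8 and lower in 3, and every log2 fold change lay between -0.089 and 0.085. The lower end was Uqcrc1, a core subunit, which read 11.71, 11.64 and 11.60 against 11.82, 11.72 and 11.68 (adjusted p = 0.796). The upper end was the small subunit gene Uqcr11, at 8.58, 8.68 and 8.76 against 8.50, 8.64 and 8.62 (adjusted p = 0.823). In both genes the ranges overlapped. The second core subunit gene Uqcrc2 had a log2 fold change of 0.0020 and Cyc1, the heme-bearing cytochrome c1, one of 0.0099. For Uqcrfs1, the Rieske iron-sulfur protein, it was -0.068, with a low value of 7.42 on knockout-labelled replicate 2 against 7.69 and 7.71 on replicates 1 and 3. The hinge subunit gene Uqcrh was at 0.057, and the small subunit genes Uqcrb and Uqcrq were at 0.025 and -0.042.

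Among the complex III assembly factors, which act on the making and insertion of cytochrome b, Uqcc1 separated the groups by a narrow margin. It read 8.22, 8.22 and 8.26 on the knockout-labelled arrays and 8.16, 8.11 and 8.16 on the wild-type arrays. The groups lay close together, the log2 fold change was 0.094 (95% interval -0.082 to 0.27), and it did not pass (adjusted p = 0.755). Of the 5 members with the antioxidant response element core, 3 were higher and 2 lower, with a median difference of 0.012 on the log2 scale, and the groups did not overlap in 1 of them. Cox5b, Cox16, Sdhaf2 and Atp5o, whose windows are shown above, were at 0.035, 0.012, -0.037 and -0.087. Uqcc3 was lower at -0.10 (6.58, 6.68 and 6.78 against 6.87, 6.75 and 6.72) and Uqcc2 was at 0.029, neither passing the test.

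Cycs, the mobile cytochrome c, was read by 5 probe sets of its own. The brightest read 11.74, 11.73 and 11.80 against 11.80, 11.64 and 11.72, with the lowest value on wild-type replicate 2 and full overlap (log2 fold change 0.040, 95% interval -0.16 to 0.24, adjusted p = 0.918). The others had log2 fold changes between -0.021 and 0.048, and 2 of them had identical values on every array. The testis form Cyct, which lies outside the naming rule, was dim at a mean level of 4.14 and read 4.22, 4.48 and 4.15 against 4.14, 3.87 and 4.01 (log2 fold change 0.28, adjusted p = 0.615).

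**Figure D2:**
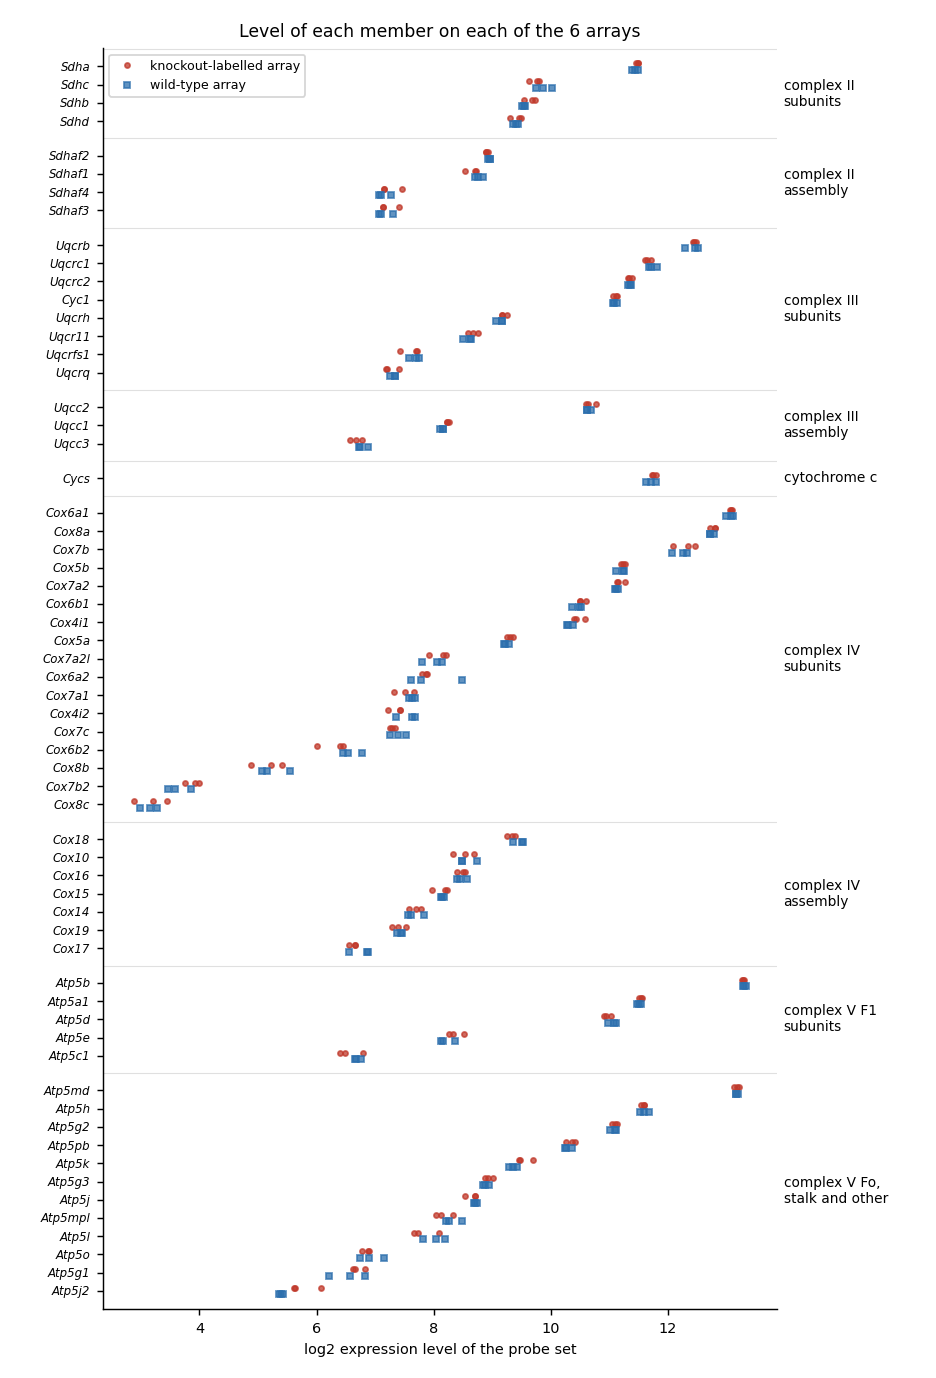
Log2 level of each member's probe set (horizontal axis) on the 3 knockout-labelled arrays (red circles) and the 3 wild-type arrays (blue squares), ordered by mean level within each complex and role. The genotypes overlap in all members but Uqcc1, Cox4i1, Atp5k and Atp5j2, and mean levels run from 3.15 for Cox8c to 13.30 for Atp5b; levels of different probe sets do not rank transcripts.

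Complex IV, cytochrome c oxidase, passes the electrons to oxygen. Knockout-labelled means were higher in 11 of the 17 subunit genes and lower in 6, with log2 fold changes from -0.30 (Cox6b2) to 0.25 (Cox7b2), and 0 passed. Cox4i1, the widely expressed form of the subunit that binds ATP, separated the groups, with 10.44, 10.40 and 10.59 on the knockout-labelled arrays and 10.28, 10.29 and 10.38 on the wild-type arrays. Knockout-labelled replicate 2 and wild-type replicate 3 were nearly equal. The log2 fold change of 0.16 (95% interval -0.057 to 0.38) did not pass (adjusted p = 0.677). The nuclear-encoded subunit genes Cox5a and Cox5b were at 0.065 and 0.035, and Cox7c was at -0.092. Cox7a2l, whose product helps join complexes III and IV into supercomplexes, was at 0.10 with a wide spread in both groups (SD 0.16 and 0.17, n = 3 each).

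The isoform families of complex IV showed 1 recurring arrangement of signs. In 5 of 7 pairs the widely expressed form showed a higher and the tissue-restricted form a lower knockout-labelled mean, without any of these genes passing the test. These pairs were Cox4i1 with Cox4i2, Cox6a1 with Cox6a2, Cox6b1 with Cox6b2, Cox7a2 with Cox7a1, and Cox8a with Cox8b. The members of a pair differ in brightness, and the direction of all genes differed with brightness in these data. The median log2 fold change over genes was -0.047 for levels between 7.23 and 7.92, where Cox4i2, Cox7a1 and Cox6a2 lie, and -0.023 above 9.56, where all the widely expressed forms lie. It was -0.00040 at the level of Cox6b2 and 0.063 at that of Cox8b. The part of brightness in the signs of the pairs was not tested. Centring of the arrays, which moves all genes alike and leaves the difference within a pair as it was, put Cox6a1 and Cox8a, both close to 0, at -0.031 and -0.014.

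Cox4i2, the form of lung and of vessel mural cells, read 7.43, 7.22 and 7.42 against 7.63, 7.68 and 7.36. Wild-type replicate 3 lay among the knockout-labelled values, and the log2 fold change was -0.20 (95% interval -0.49 to 0.095, adjusted p = 0.704). Among 13 mural and pericyte markers 9 were lower and 4 higher, from Anpep at -0.32 to Myh11 at 0.16, with a median of -0.056. Over all genes between 6.51 and 7.23, the range that holds the median level of these markers, 33.5% were higher. All 7 endothelial markers were lower as well, with a median of -0.15, and the groups overlapped in all 7. In the ranges of level that hold these markers, 31.1% to 33.5% of all genes were higher. The mean deviation of the mural and pericyte markers from the wild-type level spanned -0.22 to 0.022 under the knockout label and -0.10 to 0.12 in wild type. For the endothelial markers it spanned -0.27 to -0.022 under the knockout label and -0.066 to 0.066 in wild type, again with overlap. In bulk tissue fewer cells of a type and less RNA per cell cannot be told apart, and the part of mural cells in the Cox4i2 value was not tested.

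Cox6b2, a form typical of testis, had the lowest fold change of all members. It read 6.40, 6.01 and 6.46 on the knockout-labelled arrays and 6.78, 6.53 and 6.45 on the wild-type arrays, which is -0.30 on the log2 scale (95% interval -0.68 to 0.079, adjusted p = 0.658). Knockout-labelled replicate 2 lay well below the rest, and without that array the log2 fold change was -0.16. The widely expressed Cox6b1 was at 10.50, 10.50 and 10.61 against 10.51, 10.36 and 10.49 (log2 fold change 0.078, adjusted p = 0.831). The difference between Cox6b1 and Cox6b2 on the same array was wider on all 3 knockout-labelled arrays than on any wild-type array. The same held for Cox7a2 and Cox7a1, while the other 5 pairs overlapped. Among single probe sets the groups did not overlap in 14.3%, and no such share was computed for pairs of other genes. The pairs are not independent, since Cox8a is the widely expressed form in both Cox8 pairs.

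Cox7a1, the heart and muscle form, read 7.50, 7.33 and 7.67 against 7.69, 7.58 and 7.64 (log2 fold change -0.14, adjusted p = 0.764), and its partner Cox7a2 had a log2 fold change of 0.059. Cox6a2, the muscle form that is also found in parvalbumin interneurons, stood out for its spread: it read 7.89, 7.80 and 7.88 against 8.49, 7.78 and 7.61. Wild-type replicate 1 stood far above the rest, and the SD was 0.47 in the wild-type group and 0.046 in the knockout-labelled group (n = 3 each). Its log2 fold change was -0.10 with all arrays and 0.16 without wild-type replicate 1, and Cox6a1 was at 0.016. The mean deviation of the 5 parvalbumin and fast-spiking neuron markers was 0.16, -0.091 and -0.071 on wild-type replicates 1 to 3 and 0.14, 0.074 and 0.22 on the knockout-labelled ones. It was thus highest on knockout-labelled replicate 3, where Cox6a2 read 7.88, and the part of these cells in the Cox6a2 value was not tested.

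Cox7b2 and Cox8c, which are known from testis, were dimmer than 5.07, the 40th percentile over all probe sets, with mean levels of 3.76 and 3.15. Cox7b2 read 3.98, 3.92 and 3.75 against 3.86, 3.58 and 3.46 (log2 fold change 0.25, adjusted p = 0.654), and Cox8c had a log2 fold change of 0.034. All 4 measured sperm and testis markers also had higher means on the knockout-labelled arrays, with mean levels between 3.12 and 5.30. In the ranges of level that hold these markers, 52.4% to 69.8% of all genes were higher. Genes as bright as Cox7b2, between 3.60 and 4.52, had a median log2 fold change of 0.074. Cox8b, a muscle and brown fat form, had a mean level of 5.21, close to that percentile, and its values of 5.42, 5.22 and 4.88 against 5.54, 5.16 and 5.06 gave a log2 fold change of -0.081. Cox7b and Cox8a, the widely expressed partners, were at 0.080 and 0.033. Of the striated muscle markers 4 of 6 were higher, at a median level of 5.64. Between 5.14 and 5.78, the range that holds this level, 65.1% of all genes were higher.

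**Figure D3:**
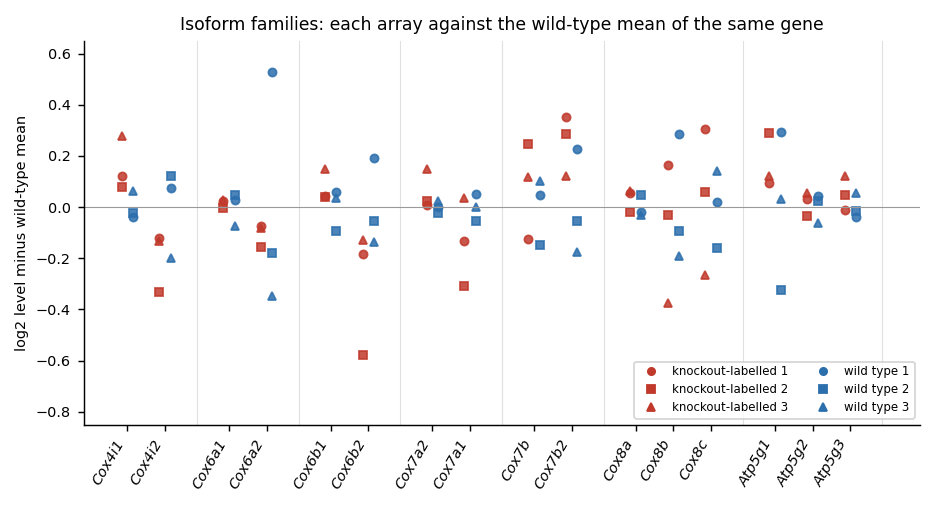
Log2 level minus the wild-type mean of the same gene (vertical axis) on each array for the isoform families of complex IV and the c-ring genes of ATP synthase; red marks knockout-labelled and blue wild-type arrays, and the shape gives the replicate number. The single points farthest from 0 belong to Cox6a2 on wild-type replicate 1 and Cox6b2 on knockout-labelled replicate 2.

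Of the 7 complex IV assembly factors 5 were lower, with a median of -0.020 on the log2 scale, and 0 passed. That share is near the background, since only 31.1% to 33.5% of all genes in the ranges of level that hold them were higher. Cox18, which inserts the second mitochondrially encoded subunit into the membrane, read 9.40, 9.25 and 9.34 against 9.50, 9.52 and 9.36, a log2 fold change of -0.13 (adjusted p = 0.725). Cox17, the copper chaperone of the complex, was at 6.67, 6.56 and 6.66 against 6.87, 6.88 and 6.56 (log2 fold change -0.14, adjusted p = 0.772). Wild-type replicate 3 fell among the knockout-labelled values in Cox18 and below all of them in Cox17. Cox10 and Cox15 make heme A from heme and so are the members closest to heme metabolism. Cox10 read 8.33, 8.53 and 8.68 against 8.73, 8.48 and 8.49, with the extremes of both groups interleaved (log2 fold change -0.052, adjusted p = 0.933). The log2 fold change of Cox15 was -0.020 (95% interval -0.25 to 0.21). The other assembly genes Cox14, Cox16 and Cox19 lay between -0.020 and 0.012.

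Complex V, the ATP synthase, makes ATP in its F1 head, driven by the turning of the membrane-bound Fo ring. Knockout-labelled means were higher in 2 of the 5 F1 genes and lower in 3, and 0 passed. Atp5b, the catalytic beta subunit, was the steadiest of them, at 13.29, 13.30 and 13.28 against 13.34, 13.30 and 13.28 (log2 fold change -0.019, 95% interval -0.19 to 0.16). The alpha subunit gene Atp5a1 was at 0.026. Atp5e, the epsilon subunit, read 8.26, 8.34 and 8.52 against 8.17, 8.36 and 8.12 (log2 fold change 0.16, adjusted p = 0.734). The gamma and delta subunit genes Atp5c1 and Atp5d were at -0.14 and -0.092 (adjusted p = 0.778 and 0.79). Wild-type and knockout-labelled values overlapped in all 5 genes.

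The remaining 12 genes of complex V encode the Fo ring, the stalk and the small subunits that shape the dimer, and knockout-labelled means were higher in 7 and lower in 5. Atp5j2, the f subunit, had the highest fold change of all members. It read 5.62, 6.08 and 5.64 on the knockout-labelled arrays and 5.39, 5.43 and 5.37 on the wild-type arrays. All 3 knockout-labelled values were higher, and the SD was 0.26 against 0.034 (n = 3 each) because of knockout-labelled replicate 2. This amounts to 1.30-fold, or 0.38 on the log2 scale (95% interval 0.039 to 0.73, SE 0.14), with an unadjusted p of 0.0344 in limma and an adjusted p of 0.577. Without knockout-labelled replicate 2 the log2 fold change was 0.23. Genes with levels between 5.14 and 5.78, like this probe set, had a median log2 fold change of 0.063, with 65.1% of them higher.

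Atp5k, the e subunit of the dimer interface, was the other Fo gene whose groups separated. It read 9.46, 9.47 and 9.70 against 9.36, 9.28 and 9.42, which is 0.19 on the log2 scale (95% interval -0.047 to 0.43, adjusted p = 0.652). Knockout-labelled replicate 3 stood above the other arrays. Atp5k is one of the 8 members with the NRF-1 core shown above. Of these 8, 6 were higher and 2 lower, with a median difference of 0.029 on the log2 scale. For comparison, 35 of all 61 members were higher, and 18 of the 23 in the brightest 10% of genes. Atp5mpl and Atp5l, 2 further small subunits, leaned the opposite way to Atp5k, at -0.15 and -0.19 (limma, adjusted p = 0.751 and 0.77). The c-ring is encoded by Atp5g1, Atp5g2 and Atp5g3, which give the same mature protein, and they had log2 fold changes of 0.17, 0.018 and 0.051. Atp5g1 varied most, from 6.21 to 6.83 on the wild-type arrays, a range that held all knockout-labelled values. Of the stalk genes, Atp5pb was at 0.060, Atp5o at -0.087, Atp5h at -0.028 and Atp5j at -0.066, and Atp5md of the small subunits was at 0.0011.

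In 8 members several probe sets of their own could be set side by side. For Atp5h the dimmer one read 6.29, 6.23 and 6.49 against 6.74, 6.67 and 6.58, all lower on the knockout-labelled arrays. Its log2 fold change was -0.33 (unadjusted p = 0.0158, adjusted p = 0.538, limma), while the bright one, with a mean of 11.59, had a log2 fold change of -0.028. The dimmer probe sets of Sdhaf1, Cox5b and Cox7b were at -0.25, -0.27 and -0.090, against -0.11, 0.035 and 0.080 for the bright ones. The sign thus differed between probe sets of the same gene in Cox5b and Cox7b. The Atp5g2 pair also differed in sign, at 0.018 and -0.017, and both probe sets of Atp5d and of Atp5e agreed in direction.

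The arrays differed more from each other than the genotypes did. The mean deviation of all 61 members from the wild-type level stood at -0.0040, -0.042 and 0.048 for replicates 1, 2 and 3 under the knockout label and at 0.041, -0.018 and -0.023 for the wild-type replicates. Knockout-labelled replicate 3 held the highest value of the 6 arrays for 21 members, and knockout-labelled replicate 2 the lowest for 17. The group means of this score differed by 0.00070. Complexes II, III and V showed the same order of replicate 3 above the other knockout-labelled arrays, and in complex IV wild-type replicate 1 was the highest at 0.074. The 42 complex I genes, given for comparison, followed a like course on the knockout-labelled arrays at -0.016, -0.060 and 0.049, and they had 20 higher and 22 lower means with a median log2 fold change of -0.012.

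**Figure D4:**
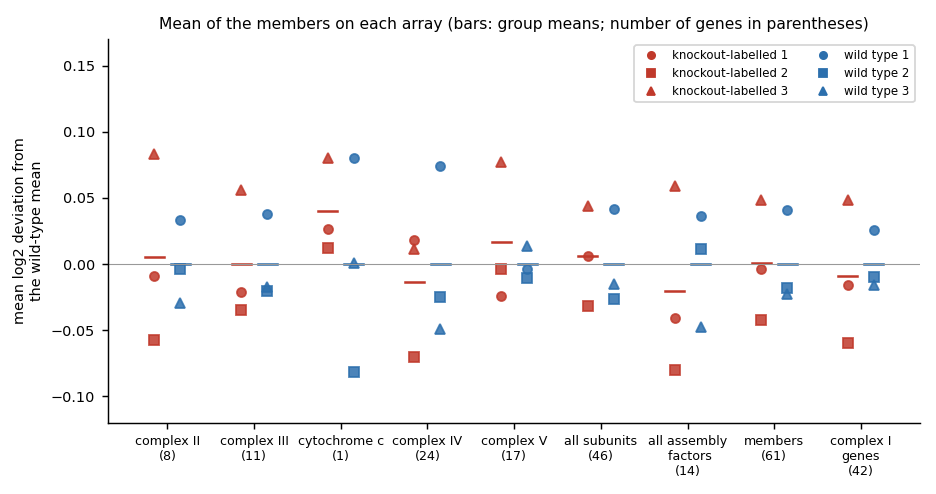
Mean log2 deviation of each group of genes from its wild-type mean (vertical axis) on each array; red marks knockout-labelled and blue wild-type arrays, the shape gives the replicate number, short bars are group means, and numbers in parentheses count genes. In every group the genotypes overlap, and knockout-labelled replicates 2 and 3 lie apart from each other by more than the group means do.

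The members were mostly bright, and the bright ones leaned to higher values. Of the 61, 23 belonged to the brightest 10% of genes, and of these 18 had a higher mean on the knockout-labelled arrays, while 36.7% of the 2218 genes at that level did. Among the other 38 members 17 were higher. The lean was small, with a median log2 fold change of 0.026 for the 23 against -0.023 for all genes of that level, and 10 of the 17 complex I genes there were higher. The mean deviation of the 23 overlapped between the groups, at 0.0075, -0.00080 and 0.051 against 0.027, -0.027 and 0.00030. With the arrays centred on their medians, which moves all genes alike, 6 of the 23 were higher and 15.8% of all genes at that level. This count was made after the values were seen and has no test.

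**Figure D5:**
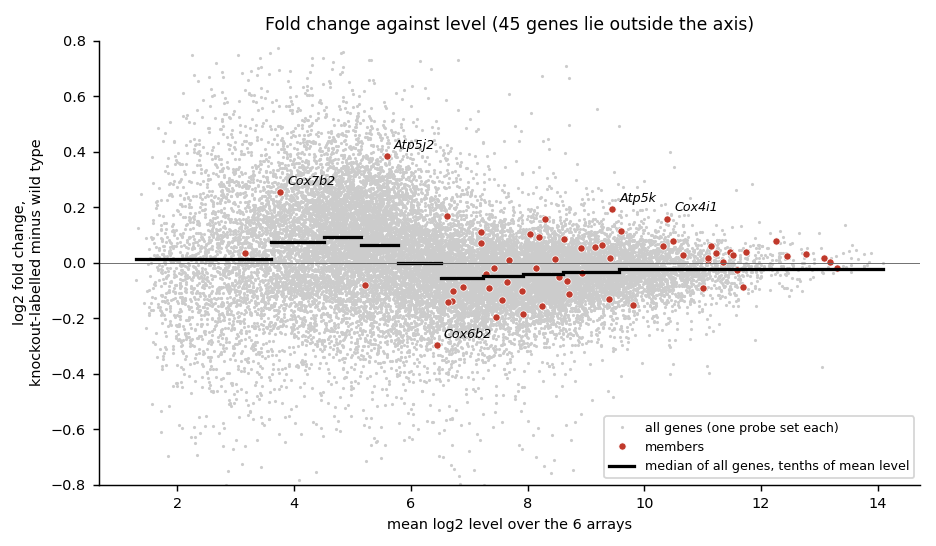
Log2 fold change (vertical axis) against mean log2 level (horizontal axis) for all genes (grey) and the 61 members (red), with the median of all genes in each of 10 equal ranks of mean level as a black line; 45 genes lie outside the axis. The black line is above 0 for dim and below 0 for bright genes, and most members sit at the bright end close to 0.

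Further genes of these complexes lie outside the naming rule. Of 26 measured assembly and regulatory genes, 8 were higher and 18 lower, 0 were called, and the median log2 fold change was -0.030. That share is near the background. Over all genes between 8.61 and 9.56, the range that holds their median level, 33.0% were higher and the median was -0.034. The groups did not overlap in 6 of the 26, 4 of them lower, against 14.3% of all probe sets in both directions. Coa6, a copper-handling assembly factor of complex IV, read 7.38, 7.30 and 7.28 against 7.50, 7.57 and 7.42 (log2 fold change -0.18, 95% interval -0.37 to 0.021, adjusted p = 0.626). Lyrm7, which helps to insert the Rieske protein into complex III, read 8.57, 8.31 and 8.52 against 8.72, 8.65 and 8.61 (log2 fold change -0.19, adjusted p = 0.66). Both were lower on every knockout-labelled array and missed the threshold. Of 9 transcription factors and coactivators of respiratory genes, 4 were higher and 5 lower and 0 were called, with Nrf1 at 0.073 and Ppargc1a at -0.051. Mitochondrially encoded subunits had no probe set of their own and were not analysed here.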

How the data were processed

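The deposited log2 values, 1 per probe set on each of 6 Affymetrix arrays, were made by the authors with RMA, per the submitters' processing notes; its version and the genome build are not given in the sources used here. As a method, RMA corrects background, normalizes between arrays and summarises probes, which compresses differences of dim probe sets and removes shifts shared by most genes. Arrays carry no read depth, and their number limits the precision. Array medians ran from 5.58 to 5.69. Genes were named from the platform annotation and updated by Entrez identifier to RefSeq symbols (23328 of 23521 single-gene probe sets matched).

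All 41345 probe sets were fitted with limma 3.58.1 (R 4.3.3; lmFit, eBayes, no covariates), with Benjamini-Hochberg adjustment over all of them and a threshold of 0.05. Fold changes are knockout-labelled minus wild type, and the fit was tested on simulated data. Members, lists and motifs were chosen with earlier results of these data known. The rule for genes to name took Bach1, Hmox1, up to 3 members per role with the smallest p, the isoform families and 3 further pathway genes (Cyct, Coa6, Lyrm7). Other members and the second probe sets were named after their values were seen. One promoter window is not reported here.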

Additional observations from a re-analysis of the deposited data

How the results depend on the processing

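Limma called 0 members under all 12 alternatives run, with smallest adjusted p-values of 0.489 to 0.841. The 3 probe sets called over the whole table stayed 3 after renewed quantile normalization, median centring, removal of dim probe sets or with trend and robust variances, and were 0 with the replicate block (3352 at an unadjusted p under 0.05) and 0 without any single array (2469 to 4007). Median centring, which moves every gene by -0.047, gave 19 higher members, a median of -0.035 and 6 higher among the 23 brightest members (14 to 18 with an array left out). Members without overlap numbered 9 of 61 after quantile normalization, against 13.3% of all probe sets. With an array left out they numbered 10 to 17, against 21.7% to 27.8% of all probe sets, where fewer arrays separate more readily. Over the 9 alternatives that move fold changes, 33 of 61 members kept their sign and 28 did not. Under median centring Sdha was at -0.0083, Uqcc2 -0.018, Cycs -0.0072, Cox6a1 -0.031, Cox8a -0.014, Cox8c -0.013 and Atp5g2 -0.029. With all probe sets averaged Cox7b was at -0.0054. With an array left out, values ran from -0.019 to 0.15 for Sdhaf3, -0.023 to 0.064 for Uqcc2, -0.00090 to 0.080 for Cycs, -0.14 to 0.039 for Cox10, -0.020 to 0.039 for Cox6a1, -0.28 to 0.16 for Cox6a2, -0.0044 to 0.18 for Cox7b, -0.20 to 0.065 for Cox8b, -0.10 to 0.18 for Cox8c and -0.014 to 0.044 for Atp5g2. The cause of these changes was not tested. Hmox1 kept its log2 fold change (1.88 to 2.03) but missed the threshold without any single array (limma, adjusted p = 0.134 to 0.233) and with the replicate block (0.544). Same-numbered arrays did not deviate together (correlations 0.086, -0.033 and 0.040), so the numbers were not taken as pairs.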
